A study of Mus musculus with 6 samples.

Results

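The genes that store, move and sense iron and break down haem were measured in CD11b+ cells enriched from mouse brain. The 10 members were chosen by their symbols: *Fth1*, *Ftl1*, *Ncoa4*, *Tfrc*, *Hfe*, *Slc11a2*, *Slc11a1*, *Slc40a1*, *Hmox1* and *Ireb2*. All 10 were among the 19225 genes with listed values. Cells came from 3 *Cnr1*+/+ and 3 *Cnr1*-/- male mice, 1 library per mouse. The strain was B6.cg Cnr1 tm1Zim, in which the *Cnr1*-/- animals lack the cannabinoid receptor CB1 in every cell. Their age was 3 months by the sample labels, while younger littermates are described in the methods. No animal of either group had been stressed, and the cerebellum was removed before the cells were isolated. The comparison asks whether microglia differ at rest between the genotypes.

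Iron is held inside the cell in ferritin, a hollow shell of heavy chains (*Fth1*), which oxidise iron, and light chains (*Ftl1*), which help to lay down the mineral core. Iron bound to transferrin enters through the transferrin receptor (*Tfrc*), leaves the endosome through a metal transporter (*Slc11a2*) and leaves the cell through ferroportin (*Slc40a1*), while haem is opened by haem oxygenase 1 (*Hmox1*). In macrophages, including microglia, these genes handle the iron of ingested cells and are known to respond to inflammation and to withholding of iron from microbes.

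Several of these mRNAs carry an iron-responsive element, a short stem-loop that iron regulatory proteins bind when iron is scarce. In the 5′ UTR it blocks translation, and in the 3′ UTR it protects the mRNA from decay, so that 3′ elements are the ones known to act on mRNA level. The elements that a strict search returned are shown because they lie in the 5′ UTR of some members and in the 3′ UTR of another. They were found in the GENCODE vM21 transcripts (build GRCm38, the sequence of mm10) as the loop CAGTGN, with any base but G at the end, closed by 5 paired bases with an unpaired C before them and at least 4 of 5 pairs below. Only the sense strand was searched, and G-T pairs were allowed. Capitals mark the loop.
*Fth1*, 5′ UTR, exon 1, chr19:9982731-9982760, + strand: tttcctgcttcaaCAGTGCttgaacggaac
*Ftl1*, 5′ UTR, exon 1, chr7:45459779-45459808, − strand: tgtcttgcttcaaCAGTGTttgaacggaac
*Slc40a1*, 5′ UTR, exon 1, chr1:45925465-45925494, − strand: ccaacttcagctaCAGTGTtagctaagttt
*Tfrc*, 3′ UTR, exon 19, chr16:32631218-32631247, + strand: taattatcggaagCAGTGCcttccataatt
*Tfrc*, 3′ UTR, exon 19, chr16:32631597-32631626, + strand: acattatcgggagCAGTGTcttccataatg
*Tfrc*, 3′ UTR, exon 19, chr16:32631662-32631691, + strand: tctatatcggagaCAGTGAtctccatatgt
*Tfrc*, 3′ UTR, exon 19, chr16:32631709-32631738, + strand: taattatcgggaaCAGTGTttcccataatt

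The 7 elements lie in 4 of the 10 members. Of 21924 protein-coding genes searched, 12 (0.0547%) had such an element in a UTR, and 117 (0.534%) had one when the lower stem was not required. A match is a description of the letters and was not tested as a site. The search does not return every known element: an isoform of *Slc11a2* is known to carry one in its 3′ UTR, and no match says only that these letters were not found. The other 8 of these 12 genes include *Alas2*, the erythroid enzyme that starts haem synthesis, and *Ftl1-ps1*, a copy of *Ftl1*.

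The libraries held the equivalent of 7708813 to 10723828 reads, estimated from the value that 1 read takes. Values are cpm, which give reads relative to the scaled total of the library as the authors set it with TMM, and the listed genes add up to 50.1% to 59.1% of a library. QuantSeq makes about 1 read per transcript from its 3′ end, so cpm were compared between genes without division by length. *Cnr1* itself was listed at 0 in all 3 *Cnr1*+/+ libraries, where 3 reads correspond to at most 0.389 cpm, and at 1.41, 1.21 and 1.79 cpm (13, 13 and 15 reads) in the *Cnr1*-/- libraries. The mutation interrupts the coding part of *Cnr1* with a neomycin cassette, whereas QuantSeq reads lie at the 3′ end, so these reads need not come from the interrupted part. The order, with reads only in the libraries labelled *Cnr1*-/-, is nevertheless the opposite of what the labels would give, and exchanged labels cannot be told apart from other sources of these few reads. The authors state that mice were genotyped by PCR and that microglia hardly express CB1 receptors. Neither statement was tested here. Every direction below rests on the labels and is given between the libraries labelled *Cnr1*-/- and those labelled *Cnr1*+/+. The summed level of 14 microglia markers, of which *Cx3cr1* was the most abundant, lay between 15907 and 18546 cpm. *Cnr1*-/- replicate 2 stood apart in blood cell markers: 10 neutrophil genes (led by *S100a9*) summed to 4107 cpm there against 270 to 531 cpm in the other 5 libraries, and 8 erythrocyte genes, 7 of them listed (led by *Hba-a2*) to 2342 against 136 to 237 cpm. The 6 monocyte genes summed to 107 cpm there against 27.6 to 35.3 cpm, with *Chil3* (68.4 cpm), *Ly6c2* (11.2 cpm) and *Plac8* (7.27 cpm) highest in that library and *Ccr2*, *F10* and *Vcan* inside the range of the others. Markers of other cells showed no such library: 9 genes of border-associated macrophages, led by *Stab1*, summed to 306 to 433 cpm, 8 endothelial genes, 7 of them listed, to 16.5 to 28.8 cpm and 9 neuronal genes to 31.9 to 39.9 cpm.

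The 10 members spanned a wide range of levels. *Fth1* was the most abundant, with a mean of 525 cpm over the 6 libraries and rank 76 of all listed genes, and *Ftl1* followed with 402 cpm and rank 95. Both ferritin chains summed to between 817 and 1028 cpm, which is 0.153% to 0.186% of the listed total of a library. *Slc11a1* came next with 67.9 cpm, then *Slc40a1* with 56.3 cpm, *Ncoa4* with 51.1 cpm, *Hfe* with 46.8 cpm and *Ireb2* with 33.6 cpm. *Slc11a2* had a mean of 14.2 cpm, *Tfrc* of 8.14 cpm and *Hmox1* of 4.14 cpm.

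Not all neighbours in this order were distinct. As listed, *Fth1* exceeded *Ftl1* in 6 of 6 libraries, by 1.04- to 1.55-fold, although their ranges overlapped. *Ftl1* exceeded *Slc11a1* by 5.25- to 7.20-fold, with no overlap. *Slc40a1* exceeded *Ncoa4* in 5 of 6 libraries and *Ncoa4* exceeded *Hfe* in 4 of 6, and in both pairs the ranges overlapped, as did those of *Slc11a1* and *Slc40a1*, although *Slc11a1* was the higher in 6 of 6. *Hfe*, *Ireb2* and *Slc11a2* each had a range above that of the next gene. *Tfrc* exceeded *Hmox1* in 5 of 6 libraries, and their ranges overlapped.

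**Figure D1:**
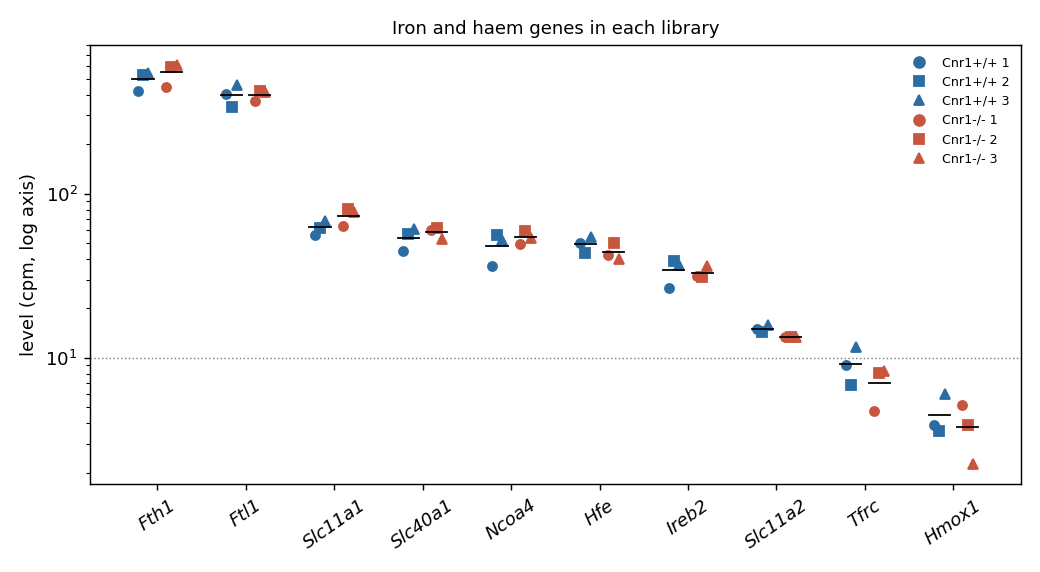
Level of each member in each library in cpm, on a log axis, with genes ordered by their mean; blue and red points are *Cnr1*+/+ and *Cnr1*-/- libraries, the marker shape gives the replicate, black bars are group means and the dotted line is the filter of 10 cpm. Both ferritins sit at or above 339 cpm in every library, *Slc11a1* to *Ireb2* between 26.5 and 80.4 cpm, and *Tfrc* and *Hmox1* at or below 11.7 cpm.

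No member passed the test between the genotype labels. Of the 10 members, 8 reached a mean of 10 cpm and entered the limma fit of log2 (cpm + 0.1). Among these 8, 0 had a nominal p under 0.05, against 401 of 6659 genes (6.02%) over all tested genes; 339 (5.09%) of these were higher and 62 (0.931%) lower in the *Cnr1*-/- libraries. Likewise 0 members and 6 genes in all (0.0901%) passed the stricter call, an adjusted p under 0.1 and more than 1.5-fold change. The smallest nominal p among the members was that of *Slc11a1*, 0.117 by limma. The median log2 difference of the 8 members was 0.06, with 5 above 0 and 3 below, beside a median of 0.08 over all tested genes. Of the 8, 1 had groups that did not overlap, *Slc11a2*, which was lower in *Cnr1*-/-. Over all tested genes, 142 (2.13%) lay apart in that direction and 589 (8.85%) in the other. The 2 members below the filter, *Tfrc* and *Hmox1*, had overlapping groups; of the 12566 listed genes below it, 676 (5.38%) lay apart with *Cnr1*-/- higher and 544 (4.33%) with *Cnr1*-/- lower. In RNA of bulk cells such as this, fewer cells of a type and less RNA per cell cannot be told apart.

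**Figure D2:**
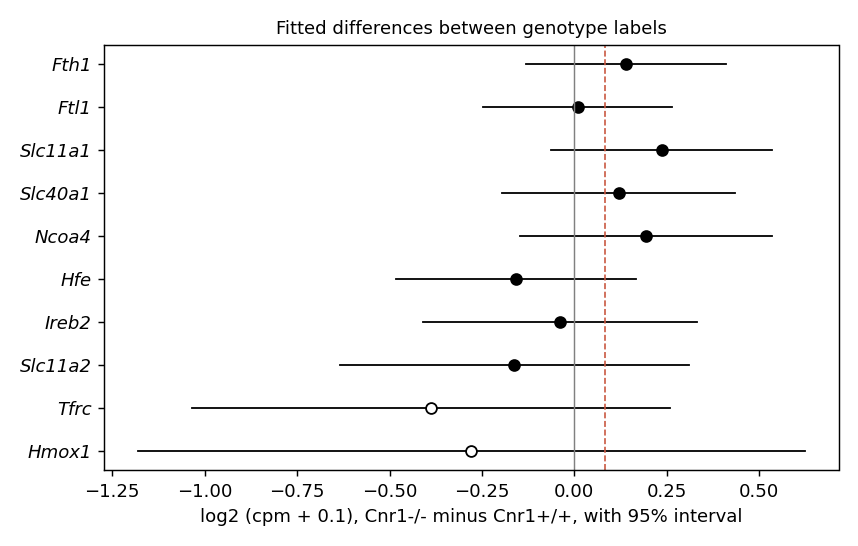
Fitted difference of each member on the log2 (cpm + 0.1) scale, *Cnr1*-/- minus *Cnr1*+/+, with its 95% interval; filled points are from the fit of genes above the filter of 10 cpm and open points, *Tfrc* and *Hmox1*, from the fit of all listed genes. The dashed line is the median of all tested genes, 0.08, and every interval includes 0.

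The ferritin chains were the best measured members. *Fth1* (chr19:9980598-9985098, + strand) was at 423, 528 and 546 cpm in *Cnr1*+/+ and at 449, 593 and 612 cpm in *Cnr1*-/-. The groups overlapped, and within each the first replicate was the lowest. Means were 499 ± 66.7 and 551 ± 89.0 cpm (SD, n = 3 each). Their log2 difference was 0.14 (SE 0.13, limma adjusted p = 0.91), with a 95% interval from 0.913- to 1.33-fold. It was 0.02 without *Cnr1*+/+ replicate 1 and 0.28 without *Cnr1*-/- replicate 1.

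*Ftl1* (chr7:45457944-45459884, − strand) was at 405, 339 and 461 cpm in *Cnr1*+/+ and at 368, 422 and 416 cpm in *Cnr1*-/-. The *Cnr1*-/- libraries all lay inside the *Cnr1*+/+ range, and both groups had a mean of 402 cpm, with an SD of 61.0 in *Cnr1*+/+ and 29.8 in *Cnr1*-/- (n = 3 each). The log2 difference was 0.01 (SE 0.12, limma adjusted p = 0.995), and its interval ran from 0.843- to 1.2-fold. Iron is known to act on ferritin mainly through translation, and ferritin protein was not measured here.

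Reads of ferritin genes can be shared with copies. *Ftl1-ps1* on chromosome 13 is 99.56% identical to the *Ftl1* transcript over 910 bases up to the 3′ end, where QuantSeq reads lie, and was listed at 29.5 to 45.8 cpm, or 6.95% to 10.9% of *Ftl1*. How the authors' expectation-maximisation step divided such reads cannot be seen in the values, so both levels are uncertain. The listed heavy chain copies *Fth-ps2* and *Fth-ps3* reached at most 0.154% of *Fth1*.

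*Ncoa4*, the receptor that carries ferritin to the lysosome so that its iron is released, was at 36.2, 55.7 and 52.3 cpm in *Cnr1*+/+ and at 49.7, 58.9 and 53.9 cpm in *Cnr1*-/-. *Cnr1*+/+ replicate 1 was the lowest library by a wide margin, and the other 5 lay close together. On the log2 scale the groups differed by 0.19 (SE 0.17, limma adjusted p = 0.902). Without that library the difference was 0.00.

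Uptake of transferrin-bound iron was represented by a gene with few reads. *Tfrc* (chr16:32608920-32632794, + strand), which holds the 4 3′ elements, was at 9.08, 6.88 and 11.7 cpm in *Cnr1*+/+, or 70, 69 and 111 reads, and at 4.76, 8.11 and 8.35 cpm in *Cnr1*-/-, or 44, 87 and 70 reads. The lowest value was that of *Cnr1*-/- replicate 1, whose exact Poisson interval of 3.46 to 6.39 cpm (95%, counting error only) lay below the 9.60 to 14.1 cpm of *Cnr1*+/+ replicate 3, the highest. Means were 9.21 ± 2.40 and 7.07 ± 2.00 cpm (SD, n = 3 each), and an exact two-sided permutation test gave p = 0.4. With 3 libraries against 3 this test cannot go below 0.1. In the fit of all listed genes the log2 difference was −0.39 (SE 0.32), with a 95% interval from −1.03 to 0.26 and an adjusted p of 0.957 by limma. It was −0.13 without *Cnr1*-/- replicate 1 and −0.20 without *Cnr1*+/+ replicate 3.

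*Hfe*, a partner of the transferrin receptors related to MHC class I, was at 49.9, 43.4 and 54.8 cpm in *Cnr1*+/+ and at 42.5, 49.9 and 40.2 cpm in *Cnr1*-/-. The highest and the lowest library belonged to different groups, but the groups overlapped over most of their range. *Hfe* had a log2 difference of −0.16 (SE 0.16, limma adjusted p = 0.916). *A230057D06Rik*, which shares a near-identical stretch with *Hfe*, was listed at no more than 0.541 cpm.

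The pair of divalent metal transporters differed in level. *Slc11a2* (DMT1), which moves iron out of endosomes, was at 15.0, 14.3 and 15.9 cpm in *Cnr1*+/+ and at 13.4, 13.5 and 13.4 cpm in *Cnr1*-/-. All 3 *Cnr1*-/- libraries were below all 3 *Cnr1*+/+ libraries and lay close to each other, with means of 13.4 ± 0.0831 and 15.1 ± 0.807 cpm (SD, n = 3 each). These values are 124, 145 and 112 reads in *Cnr1*-/- and 116, 143 and 151 in *Cnr1*+/+. At a like count, the 111 reads of *Tfrc* in *Cnr1*+/+ replicate 3, the Poisson interval ran from 9.60 to 14.1 cpm (95%). Counting error of that size is wider than the gap between these groups and than the spread within *Cnr1*-/-. An exact two-sided permutation test gave p = 0.1, the smallest it can give. In limma, which draws each gene's spread towards that of genes at its level, the log2 difference was −0.16 (SE 0.23, adjusted p = 0.954), with an interval from 0.644- to 1.24-fold. *Slc11a2* overlaps *Gm5475* on the opposite strand, which was listed at 0.421 to 3.94 cpm.

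*Slc11a1* (NRAMP1), a phagosome transporter of macrophages that withholds metals from ingested microbes, was at 56.3, 62.2 and 68.5 cpm in *Cnr1*+/+ and at 63.3, 80.4 and 76.9 cpm in *Cnr1*-/-. *Cnr1*-/- replicates 2 and 3 were above every *Cnr1*+/+ library, and replicate 1 lay inside the *Cnr1*+/+ range. Means were 62.3 ± 6.09 and 73.5 ± 9.01 cpm (SD, n = 3 each). The log2 difference of 0.24 (SE 0.15, limma adjusted p = 0.857) had an interval from 0.957- to 1.45-fold, and it was the highest value among the 8 tested members.

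The members of export and haem breakdown, *Slc40a1* and *Hmox1*, gave no called difference either. *Slc40a1* (chr1:45908068-45926523, − strand), the only known exporter of iron from cells, was at 44.8, 56.6 and 61.1 cpm in *Cnr1*+/+ and at 60.4, 61.8 and 53.2 cpm in *Cnr1*-/-. All values but that of *Cnr1*+/+ replicate 1 fell between 53.2 and 61.8 cpm. Between the labels *Slc40a1* differed by 0.12 on the log2 scale (SE 0.15, limma adjusted p = 0.946), and without *Cnr1*+/+ replicate 1 it was −0.01.

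*Hmox1* was the lowest member, at 3.89, 3.59 and 5.99 cpm in *Cnr1*+/+ and at 5.20, 3.92 and 2.27 cpm in *Cnr1*-/-. These values correspond to 30, 36 and 57 reads and to 48, 42 and 19 reads. The 19 reads of *Cnr1*-/- replicate 3 allow 1.36 to 3.54 cpm, and the 57 reads of *Cnr1*+/+ replicate 3 allow 4.54 to 7.77 cpm (exact Poisson, 95%). The groups overlapped, with an exact two-sided permutation p of 0.6. In the fit of all listed genes the log2 difference was −0.28 (SE 0.45, 95% interval −1.18 to 0.62, limma adjusted p = 0.977), and without *Cnr1*-/- replicate 3 it was 0.04. *Cnr1*-/- replicate 2, the library with the high erythrocyte markers, was in the middle of the *Hmox1* values.

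*Ireb2*, which encodes iron regulatory protein 2, was at 26.5, 39.1 and 37.0 cpm in *Cnr1*+/+ and at 31.4, 31.0 and 36.4 cpm in *Cnr1*-/-. The *Cnr1*-/- libraries again lay inside the *Cnr1*+/+ range. The log2 difference was −0.04 (SE 0.18, limma adjusted p = 0.986). This protein is known to be controlled by degradation rather than by its mRNA.

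Differences between single libraries were as large as those between the labels. *Cnr1*+/+ replicate 1 was the lowest library for 5 of the 10 members (*Fth1*, *Slc11a1*, *Slc40a1*, *Ncoa4* and *Ireb2*), and the highest for 0. *Cnr1*+/+ replicate 3 was above the gene mean for all 10 members and the highest library for 5 of them. The median tested gene moved the same way in these libraries, by −0.13 and 0.06 on the log2 scale from its mean over the 6 libraries. After each library was centred on the median of the tested genes, *Cnr1*+/+ replicate 1 was the lowest for 3 members and the highest for 3, and *Cnr1*+/+ replicate 3 was the highest for 2 and below the gene mean for 2. The coefficient of variation was larger in *Cnr1*+/+ than in *Cnr1*-/- for 6 of the 8 tested members, beside 60.0% of all tested genes.

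**Figure D3:**
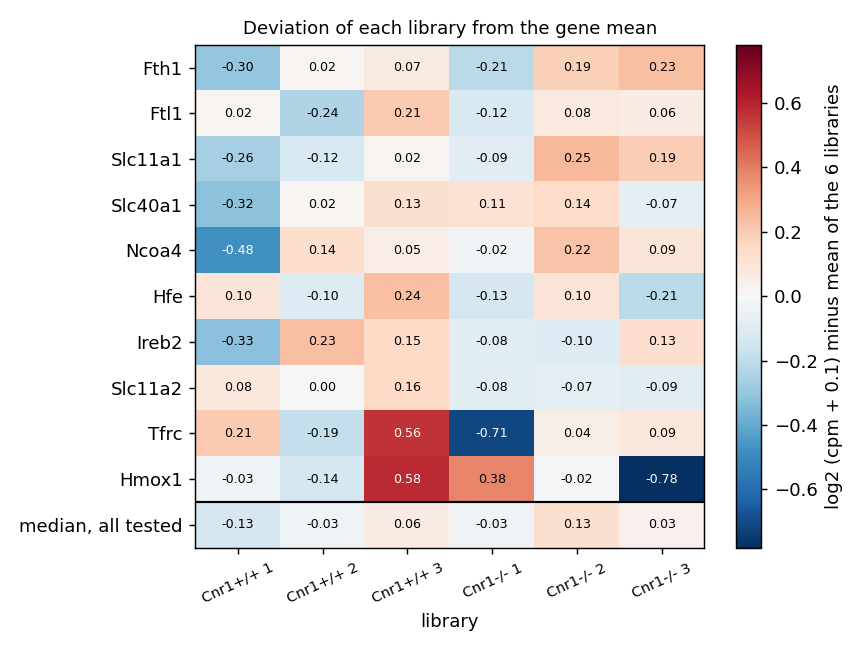
Log2 (cpm + 0.1) of each member in each library minus the mean of that gene over the 6 libraries, in numbers and colour, with the median of all tested genes in the last row. *Cnr1*+/+ replicate 1 is low for 5 members, and the widest deviations, from −0.78 to 0.58, belong to *Hmox1* and *Tfrc*, the members with the fewest reads.

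Ratios within a library do not depend on how libraries were scaled to each other, and 3 were compared. The ratio of *Ftl1* to *Fth1* was 0.959, 0.643 and 0.844 in *Cnr1*+/+ and 0.820, 0.712 and 0.681 in *Cnr1*-/-. As listed, the heavy chain was the higher in every library, and the groups overlapped (exact two-sided permutation p = 0.6, also 0.6 after Benjamini-Hochberg adjustment over the 3 ratios). With reads of the listed copies added to each chain the ratio was 0.698 to 1.04 in *Cnr1*+/+ and 0.738 to 0.897 in *Cnr1*-/-, so that the light chain was then the higher in *Cnr1*+/+ replicate 1.

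The ratio of *Tfrc* to the summed ferritins sets the mRNA that is stabilised when iron is scarce against ferritin mRNA, which does not measure the iron stores. This ratio was 0.0110, 0.00794 and 0.0116 in *Cnr1*+/+ and 0.00583, 0.00800 and 0.00812 in *Cnr1*-/-. The highest 2 values were *Cnr1*+/+ libraries and the lowest was *Cnr1*-/- replicate 1, but *Cnr1*+/+ replicate 2 lay below 2 of the *Cnr1*-/- libraries. The exact two-sided permutation p was 0.3 (0.45 adjusted).

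The ratio of *Slc40a1* to *Tfrc*, of exporter mRNA to receptor mRNA, was 4.93, 8.22 and 5.23 in *Cnr1*+/+ and 12.7, 7.62 and 6.37 in *Cnr1*-/-. The value of 12.7 in *Cnr1*-/- replicate 1 is that of the library with the fewest *Tfrc* reads, 44. The groups overlapped (exact two-sided permutation p = 0.3, 0.45 adjusted). The log2 difference was 0.51, and 0.22 without that library.

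**Figure D4:**
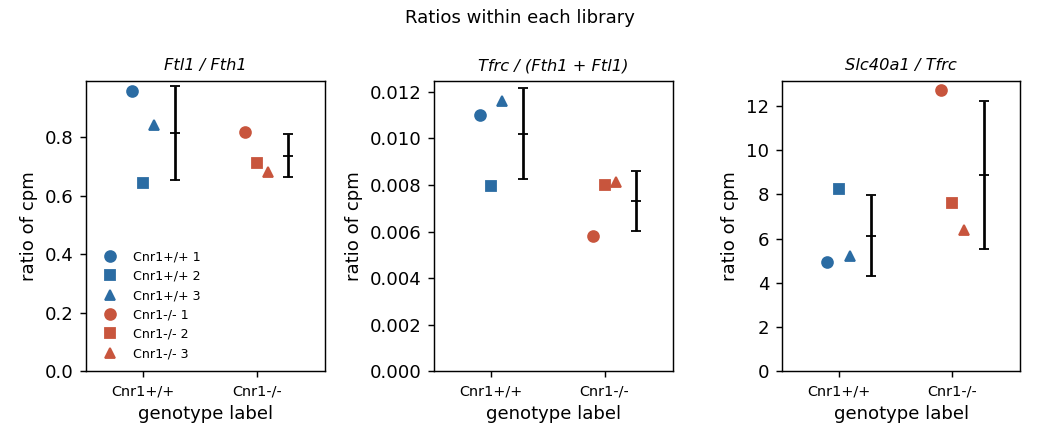
The 3 ratios of cpm in each library, with the mean ± SD of each group (n = 3) beside the points; all axes start at 0. The groups overlap in each panel, and *Cnr1*-/- replicate 1 gives the lowest *Tfrc* to ferritin ratio and the highest *Slc40a1* to *Tfrc* ratio.

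Other genes of iron and haem metabolism were read from 5 lists with 84 genes. Of these 84, 74 were listed and 42 passed the filter of 10 cpm. Of the 42, 5 had a nominal p under 0.05 by limma, 4 higher (*Ltf*, *Isca1*, *Lcn2* and *Blvrb*) and 1 lower (*Glrx3*) in *Cnr1*-/-, beside the 6.02% of all tested genes given above. None of the 42 had an adjusted p under 0.1 in this fit. The median log2 difference of the 42 was 0.09. *Isca1* kept its nominal call in all 15 alternatives and *Ltf* in all 14 that gave it a value. The fit without *Cnr1*-/- replicate 2 gave *Ltf* no value, so these 14 cannot show whether its call rests on that library. *Lcn2* lost its nominal call in 8 of 15, *Blvrb* in 7 of 14 and *Glrx3* in 7 of 15. Where *Lcn2* lost the call, its log2 difference was 0.08 without *Cnr1*-/- replicate 2 and otherwise 1.02 to 1.26. The count fell to 1, *Isca1*, without *Cnr1*-/- replicate 2 and to 2 without *Cnr1*+/+ replicate 2.

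**Figure D5:**
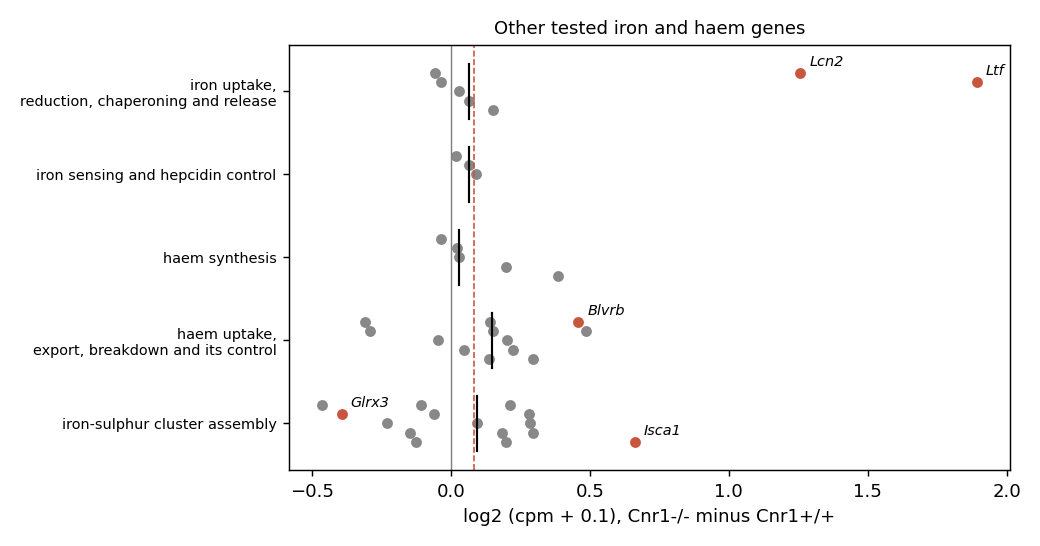
Difference of each of the 42 tested genes of the 5 lists on the log2 (cpm + 0.1) scale, *Cnr1*-/- minus *Cnr1*+/+; red points have a nominal p under 0.05, black bars are list medians and the dashed line is the median of all tested genes. All but *Isca1*, *Ltf* and *Lcn2* lie within 0.5 of 0, and *Ltf* and *Lcn2*, at 1.89 and 1.26, are farthest to the right.

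Of the 20 genes of iron uptake, reduction, chaperoning and release, 16 were listed and 7 tested. *Trf*, which encodes transferrin and is also made by oligodendrocytes, was the most abundant, at 297, 354 and 444 cpm in *Cnr1*+/+ and 326, 372 and 358 cpm in *Cnr1*-/-. The groups overlapped, with a log2 difference of −0.04. The 8 oligodendrocyte markers summed to 432 to 864 cpm, and their part in the *Trf* level was not tested. *Slc25a37* (mitoferrin 1), which brings iron into mitochondria, had a mean of 84.6 cpm and a log2 difference of 0.03, and *Pcbp1*, a cytosolic iron chaperone, 75.1 cpm and −0.06.

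The 2 genes of this list with a nominal p under 0.05 by limma encode proteins stored in neutrophil granules. Outside cells these bind iron, directly or through a siderophore. *Ltf* (lactoferrin) was at 8.69, 4.89 and 7.68 cpm in *Cnr1*+/+ and at 15.5, 112 and 9.90 cpm in *Cnr1*-/-, with a log2 difference of 1.89 (SE 0.49, limma adjusted p = 0.359). *Lcn2* (lipocalin 2), which binds bacterial siderophores, was at 14.3, 9.68 and 7.15 cpm in *Cnr1*+/+ and at 14.1, 123 and 7.87 cpm in *Cnr1*-/-, with a log2 difference of 1.26 (SE 0.53, limma adjusted p = 0.792). Both are among the neutrophil markers that were high in *Cnr1*-/- replicate 2. Without that library the log2 difference of *Lcn2* was 0.08, and *Ltf* fell under the filter of 10 cpm, with the other 2 *Cnr1*-/- values still above the 3 *Cnr1*+/+ values. Over the alternatives the limma adjusted p of *Ltf* lay between 0.00433, without *Cnr1*-/- replicate 3, and 0.825, without a mean-variance trend, and it was 0.0616 in the fit of all listed genes. That of *Lcn2* was 0.0381 without *Cnr1*-/- replicate 3, which leaves the high library with 1 other in its group. With both left out, 3 of the other 40 pathway genes had a nominal p under 0.05.

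Of the 9 genes of iron sensing and hepcidin control, 4 were listed, 3 were tested and 0 were called. *B2m*, the light chain that *Hfe* needs to reach the surface, was at 1155, 889 and 1087 cpm in *Cnr1*+/+ and at 1026, 1156 and 1135 cpm in *Cnr1*-/-, above each of the 10 members in every library. *Herc2*, a ubiquitin ligase, had a mean of 136 cpm and a log2 difference of 0.02. *Fbxl5*, the iron-sensing subunit of the ligase that removes iron regulatory proteins, had a mean of 18.3 cpm and a log2 difference of 0.06.

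All 13 genes of haem synthesis were listed, 5 were tested and 0 were called. *Tmem14c*, which serves porphyrin transport in mitochondria, was the most abundant with 61.9 cpm and a log2 difference of 0.03. *Alas1*, the first enzyme of the pathway outside red cells, was at 22.6, 25 and 28.2 cpm in *Cnr1*+/+ and at 27.1, 29.9 and 29.7 cpm in *Cnr1*-/-, which overlap by 1 library (log2 difference 0.20, limma adjusted p = 0.91). *Cpox*, coproporphyrinogen oxidase, had a mean of 25.3 cpm and a log2 difference of 0.02.

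Of the 16 genes of haem uptake, export, breakdown and its control, 15 were listed and 12 tested. *Lrp1*, a receptor that takes up haem bound to haemopexin among many ligands, was at 240, 246 and 269 cpm in *Cnr1*+/+ and at 291, 291 and 298 cpm in *Cnr1*-/-. All *Cnr1*-/- libraries were above all *Cnr1*+/+ libraries, but the log2 difference of 0.22 (SE 0.11) did not pass the test (limma adjusted p = 0.829). *Nfe2l2* and *Bach1*, the activator and the haem-sensitive repressor of *Hmox1*, had means of 119 and 54.2 cpm and log2 differences of −0.05 and 0.14. *Blvrb*, a biliverdin reductase that acts downstream of haem oxygenase, was at 14.4, 14.9 and 21.3 cpm in *Cnr1*+/+ and at 18.5, 25.4 and 25.4 cpm in *Cnr1*-/-. Its groups overlapped by 1 library, and its log2 difference was 0.46 (SE 0.22, limma adjusted p = 0.821). Its nominal call was lost with median centring, with quantile normalisation, with rescaling without mitochondrial genes and without any 1 of *Cnr1*+/+ replicates 1 and 2 and *Cnr1*-/- replicates 2 and 3, where the log2 difference lay between 0.36 and 0.39.

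All 26 genes of iron-sulphur cluster assembly were listed, and 15 were tested. *Iscu*, the scaffold on which clusters are built, was the most abundant with 44.2 cpm and a log2 difference of 0.30 (limma adjusted p = 0.839). *Mms19*, of the cytosolic targeting complex, had a mean of 38.1 cpm and a log2 difference of 0.09, and *Hspa9*, a mitochondrial chaperone, 30.1 cpm and 0.21. *Isca1*, which serves the mitochondrial assembly of 4Fe-4S clusters, was at 16.3, 17.4 and 14.9 cpm in *Cnr1*+/+ and at 27.6, 29.4 and 20.9 cpm in *Cnr1*-/-. Its groups did not overlap, and its log2 difference was 0.66 (SE 0.21, limma adjusted p = 0.564). *Glrx3*, a cytosolic glutaredoxin that carries clusters, was at 32.6, 26.5 and 25.4 cpm in *Cnr1*+/+ and at 21.9, 21.9 and 20.2 cpm in *Cnr1*-/-, also without overlap (log2 difference −0.39, SE 0.19, limma adjusted p = 0.821). Its nominal call was lost with a minimum mean of 20 cpm, with vooma weights and when any library but *Cnr1*+/+ replicate 3 was left out, with a log2 difference between −0.43 and −0.28 in these fits.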

How the data were processed

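CD11b+ cells were enriched with magnetic beads from perfused brains, and 3′ mRNA libraries were made with the QuantSeq FWD kit. According to the methods and the processing notes, the authors aligned trimmed reads to mm10 with STAR in Partek Flow, assigned them to Ensembl genes by expectation-maximisation and scaled the libraries with TMM. The deposited values are cpm, and 0 columns were left unmapped. Between 82.5% and 84.9% of values above 0 were whole multiples of 1 read (tolerance 0.01), so no count model was used. A value of 0 allows up to 3 reads.

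Groups followed the sample titles. Log2 (cpm + 0.1) of the 6659 genes whose mean reached 10 cpm was fitted in R 4.3.3 with limma 3.58.1 (moderated test with a mean-variance trend, genotype only, Benjamini-Hochberg over all tested genes). The procedure was also run on simulated data, with the same biological spread for all genes and no outlying library. That run does not cover a library such as *Cnr1*-/- replicate 2. Single values and ratios were compared by exact permutation. P-values measure the spread between mice. Members and gene lists were chosen with earlier results of these data known. Named are all members and, of each list, genes with a nominal p under 0.05 and the 3 most abundant. For 4 pathway genes the values carry a newer symbol. Gene ends are the last base, 1 less than listed. Near copies were sought with blastn 2.17.0 in GENCODE vM21 transcripts (at least 95% identity). Figures were drawn with matplotlib 3.10.9.

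Alternatives were a pseudocount of 1, no filter or a minimum mean of 20, median centring, quantile normalisation, rescaling without mitochondrial genes, no trend, vooma weights, the replicate number as a block, copies added to ferritins, and each library left out.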

Additional observations from a re-analysis of the deposited data

How the results depend on the processing

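The counts of 0 members with a nominal p under 0.05 and of 0 with an adjusted p under 0.1 and a fold change over 1.5 were the same under every alternative run. Over the 10 members, 143 alternative fits gave a lowest nominal p of 0.0523 and a lowest adjusted p of 0.56 by limma; 132 had the direction of the value reported and 11 the opposite. The log2 difference of *Ftl1* was −0.067 with median centring, −0.11 with quantile normalisation and −0.091 with rescaling without mitochondrial genes. These 3 scalings set the median of all tested genes at 0.01, 0.00 and −0.02, against 0.08. When single libraries were left out, the difference lay between −0.11 and 0.11 for *Ftl1*, between −0.011 and 0.21 for *Slc40a1*, between −0.21 and 0.068 for *Ireb2* and between −0.54 and 0.043 for *Hmox1*. Without a change of sign it lay between 0.02 and 0.28 for *Fth1*, 0.00 and 0.31 for *Ncoa4*, 0.17 and 0.34 for *Slc11a1*, −0.58 and −0.13 for *Tfrc*, −0.25 and −0.08 for *Hfe*, and −0.20 and −0.12 for *Slc11a2*. The number of pathway genes with a nominal p under 0.05 was 5; it was 9 with no filter on low values, 3 with a minimum mean of 20 cpm, 3 with median centring and 3 with vooma weights, and between 1 and 7 with a library left out. Fewer genes were tested under the higher filter and more with none; the cause was not tested for the others. No ratio changed direction. The replicate numbers did not pair the libraries (correlations of deviations −0.056, −0.032 and −0.031); with the replicate block, 421 instead of 401 of all tested genes, 5 pathway genes and 0 members had a nominal p under 0.05. *Tfrc* and *Hmox1* had 19 to 111 reads per library, and for each the Poisson intervals of the lowest and the highest library did not overlap. For these 2 genes the alternatives were run without the filter, and quantile normalisation and vooma weights were not run; *Slc11a2* gave no value at a minimum mean of 20 cpm.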

Other observations

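The genes below were named after their values were seen. *Slc39a14*, *Steap3*, *Uros*, *Alas2* and *Hp* are pathway genes under the filter of 10 cpm, and *Ppox*, *Blvra* and *Hmox2* passed it. Of the 42 pathway genes that passed, the groups did not overlap for 4 higher (*Ltf*, *Isca1*, *Lrp1* and *Ppox*) and 3 lower (*Glrx3*, *Blvra* and *Ciao3*) in *Cnr1*-/-, beside 8.85% and 2.13% of all tested genes. Of the 32 listed below the filter, they did not overlap for 2 higher (*Alas2* and *Bola3*) and 3 lower (*Slc39a14*, *Steap3* and *Uros*), beside 5.38% and 4.33% of all 12566 listed genes below it. *Slc39a14* (ZIP14), which imports iron that is not bound to transferrin, was at 5.06, 5.99 and 4.52 cpm in *Cnr1*+/+ and at 2.27, 2.05 and 2.27 cpm in *Cnr1*-/-, or 39, 60 and 43 reads against 21, 22 and 19. The groups did not overlap, and the log2 difference was −1.20 (SE 0.47, limma adjusted p = 0.831 in the fit of all listed genes). *Steap3*, an endosomal ferrireductase that works with *Tfrc* and *Slc11a2*, was at 1.69, 0.599 and 1.68 cpm in *Cnr1*+/+ and at 0.541, 0 and 0 cpm in *Cnr1*-/-. These are 13, 6 and 16 reads against 5, 0 and 0, so the groups are separated by 6 reads against 5 (limma adjusted p = 0.831 in the same fit).

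*Uros*, an enzyme of haem synthesis, was also lower without overlap, at 4.15, 5.39 and 4.21 cpm in *Cnr1*+/+ and at 1.52, 3.45 and 2.50 cpm in *Cnr1*-/- (log2 difference −0.92, limma adjusted p = 0.954 in the fit of all listed genes). *Ppox*, a later enzyme of the same pathway, went the other way, at 13.8, 14.5 and 15.7 cpm in *Cnr1*+/+ and at 18.8, 20.2 and 18.4 cpm in *Cnr1*-/- (log2 difference 0.39, limma adjusted p = 0.839 among the genes that passed the filter). The biliverdin reductases also differed in sign: *Blvra* was at 19.7, 18.2 and 19 cpm in *Cnr1*+/+ and at 15.0, 16.8 and 14.1 cpm in *Cnr1*-/-, without overlap (log2 difference −0.31, limma adjusted p = 0.892 among the same genes), beside the higher values of *Blvrb*. *Alas2*, which carries a 5′ iron-responsive element, was at 0.259, 0 and 0.421 cpm in *Cnr1*+/+ and at 1.08, 10.5 and 1.43 cpm in *Cnr1*-/-; it is one of the erythrocyte markers, and its highest value was in *Cnr1*-/- replicate 2, where those markers were high. *Hp*, the haptoglobin gene, was at 19.6 cpm in that library and at 1.19 to 4.09 cpm in the other 5. *Hmox2* (haem oxygenase 2) had a mean of 41.4 cpm over all libraries, above that of *Hmox1*. It was at 43.6, 31.3 and 37.1 cpm in *Cnr1*+/+ and at 42.4, 47.9 and 46.0 cpm in *Cnr1*-/-. Its groups overlapped, with a log2 difference of 0.29 (limma adjusted p = 0.839 among the genes that passed the filter).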
